A study of Mus musculus with 2 samples.

Results

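The genes described here encode the enzymes of glycolysis and of the pentose phosphate pathway, the enzymes that direct pyruvate, and the oxygen-sensing pathway of the hypoxia-inducible factors (HIF) with genes known to respond to it. They were chosen by name, as a list of 44 mouse genes, out of 12393 genes that the array names by a probe set of 1 gene. Transcript levels were measured in uterine epithelial cells taken in the morning at pregnancy day 4, on 1 array of control mice and 1 array of Stat3 knockout mice. The control group carries the genotype label control and a title that names a Stat3 flox allele, and the other group carries the genotype label Stat3 knockout. Both samples bear the title of the flox control, so genotype and description separate them, and no Cre line, strain or age of the mice is given in the sources used here. Each array was hybridised with pooled RNA, with 3 animals or preparations per pool; the design text gives the number without saying which. The RNA extraction protocol speaks of stromal cells of human endometrium, while every other label gives mouse epithelium. Epithelium was separated from uterine segments by trypsin and squeezing, and fewer cells of a type and less RNA per cell cannot be told apart in such bulk samples.

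Glycolysis splits glucose into pyruvate in the cytosol. Lactate dehydrogenase then turns pyruvate into lactate, while the pyruvate dehydrogenase complex feeds it to the mitochondria and is switched off by the pyruvate dehydrogenase kinases (PDK). Prolyl hydroxylases of the EGLN family mark HIF alpha subunits for destruction when oxygen is plentiful, through the ubiquitin ligase subunit VHL, and the stabilised factor binds short DNA elements near many glycolytic genes and near genes for angiogenesis, mitophagy and collagen hydroxylation. In the uterus of early pregnancy, the HIF subunits are known in epithelium and stroma around implantation. STAT3, deleted in the knockout group, carries signals of leukaemia inhibitory factor and interleukin 6 family cytokines to the nucleus.

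Most glycolytic enzyme genes had a moderately lower signal in the knockout array, whereas of 12 oxygen-sensing and hypoxia genes with a ratio 3 were at least 2-fold lower, 3 at least 2-fold higher and 6 passed neither limit. Car9, 1 of these 6, was at least 1.83-fold lower, so it may lie past 2-fold. Values are MAS5 signals, the background-corrected brightness of a probe set on a linear scale. Each gene is represented by its brightest probe set, and a signal under a floor of 14.0, the 40th percentile of all signals, is treated as not measured. Of the 44 genes, 37 were named by a probe set of 1 gene, and 34 of these exceeded the floor on 1 or both arrays and had a ratio of knockout over control. Eno2, Pdk4 and Epas1 were under the floor on both arrays. Gapdh was read by control probe sets alone, Bnip3l only by probe sets annotated with several genes, which are not reported, and Gpi1, Eno1, G6pdx, Pfkfb1 and Pfkfb4 are not analysed here. With 1 array per group no difference has a replicate check. Sizes are given without p-values.

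By a limit of 2-fold or more, 6 of the 34 were lower in the knockout (Aldoc, Pfkp, Ldha, Egln3, Ddit4 and P4ha2) and 5 higher (Pdk1, Pdk2, Vhl, Bnip3 and P4ha1). Among all 8304 genes with a ratio, 9.92% were at least 2-fold lower, 7.37% at least 2-fold higher and 17.3% either, against 17.6%, 14.7% and 32.4% of the 34. The median log2 ratio of the 34 genes was -0.23, beside 0.05 for all genes. Of the 11 genes past 2-fold, 5 rest on a bound, because 1 of their signals lay under the floor: Aldoc, Pfkp and Egln3 in the knockout, and Pdk2 and Vhl in the control. Without bounds, 3 of 28 members were lower and 3 of 28 higher by that limit, where 8.63% and 7.07% of the 7513 genes measured over the floor on each array were. The targeted gene, Stat3, gave a brightest signal of 582 in the control against 186 in the knockout, 3.12-fold lower, and whether that probe set lies in the deleted part was not determined.

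**Figure D1:**
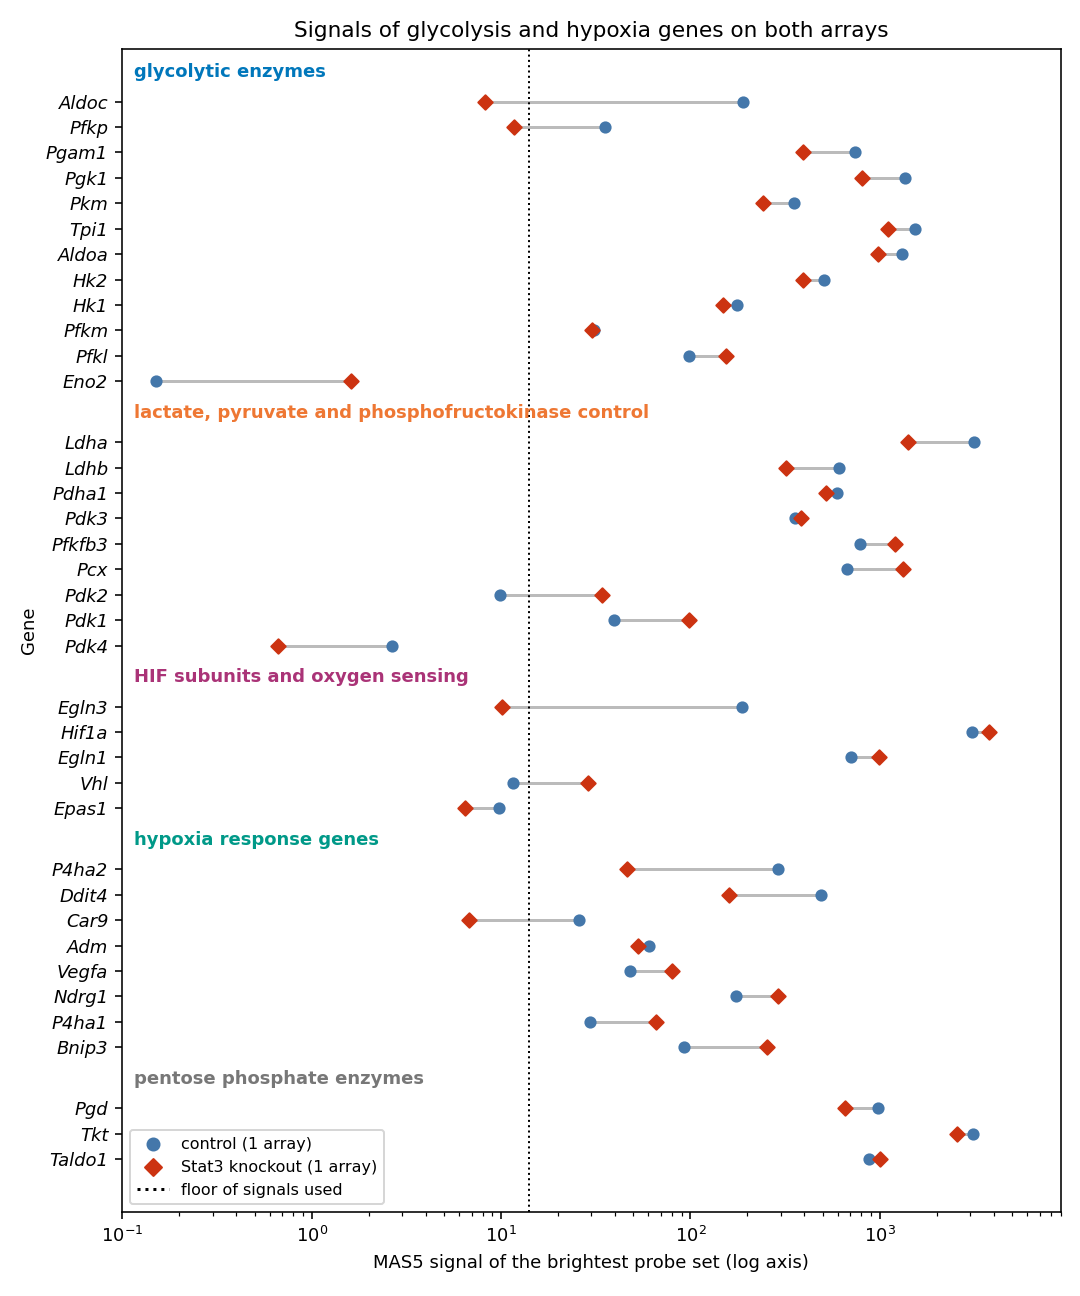
MAS5 signals (log axis) of the 37 genes named by a probe set of 1 gene, grouped by role, with circles for the control array, diamonds for the knockout array and a dotted line at the floor of 14.0. The knockout diamonds of most glycolytic enzymes lie a short way to the left of the control circles, while Aldoc and Egln3 cross the floor and Bnip3, Pdk1 and P4ha1 lie to the right.

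The 250 bases before the start of transcription are shown for 5 of the genes past 2-fold, 3 lower and 2 higher in the knockout, since all 5 are known to respond to hypoxia and yet differed in opposite directions. They were picked after their values were seen. Capitals mark the core of the hypoxia response element, ACGTG or GCGTG, which reads CACGT or CACGC when it lies on the other strand. The sequences are those of RefSeq on build GRCm38.p6, written 5′ to 3′ along the gene. The first 3 genes, Ldha, Egln3 and P4ha2, were lower in the knockout.
Ldha, chr7:46845554-46845803, plus strand: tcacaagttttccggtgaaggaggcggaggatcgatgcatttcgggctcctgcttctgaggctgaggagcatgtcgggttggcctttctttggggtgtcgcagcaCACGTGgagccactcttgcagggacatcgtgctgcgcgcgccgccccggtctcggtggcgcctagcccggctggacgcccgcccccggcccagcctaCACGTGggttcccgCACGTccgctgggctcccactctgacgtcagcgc
Egln3, chr12:54203875-54204124, minus strand: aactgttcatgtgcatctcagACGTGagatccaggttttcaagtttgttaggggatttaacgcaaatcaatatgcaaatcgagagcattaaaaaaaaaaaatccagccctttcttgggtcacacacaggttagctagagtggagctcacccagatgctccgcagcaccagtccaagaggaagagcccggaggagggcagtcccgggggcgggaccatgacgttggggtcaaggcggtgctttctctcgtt
P4ha2, chr11:54100674-54100923, plus strand: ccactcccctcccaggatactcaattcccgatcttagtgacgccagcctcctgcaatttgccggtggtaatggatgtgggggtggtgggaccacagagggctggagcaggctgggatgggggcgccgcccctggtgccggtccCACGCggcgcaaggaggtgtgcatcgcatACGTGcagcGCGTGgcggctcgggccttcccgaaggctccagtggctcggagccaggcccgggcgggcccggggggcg
The other two, Bnip3 and P4ha1, were higher in the knockout.
Bnip3, chr7:138909507-138909756, minus strand: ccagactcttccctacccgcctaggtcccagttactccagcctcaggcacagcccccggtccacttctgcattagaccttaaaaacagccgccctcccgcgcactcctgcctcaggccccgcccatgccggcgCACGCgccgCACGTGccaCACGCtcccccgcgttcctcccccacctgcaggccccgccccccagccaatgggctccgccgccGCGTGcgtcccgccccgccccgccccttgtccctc
P4ha1, chr10:59323046-59323295, plus strand: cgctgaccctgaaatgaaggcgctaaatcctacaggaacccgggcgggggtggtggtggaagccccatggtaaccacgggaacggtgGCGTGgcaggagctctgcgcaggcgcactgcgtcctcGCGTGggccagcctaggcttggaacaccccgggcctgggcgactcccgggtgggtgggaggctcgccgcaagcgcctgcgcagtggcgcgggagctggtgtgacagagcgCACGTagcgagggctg
In the Ldha window the core lies in 2 CACGTG palindromes, at positions -145 and -48 from the start, each of which is a match on both strands, and once more at -34. P4ha1 and P4ha2, which encode alternative catalytic subunits of the same enzyme, each hold 3 matches.

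Over all members, 41 of 44 genes matched the RefSeq promoter table, with 61 starts. At least 1 core, ACGTG or GCGTG on either strand, lay in the window of some start in 37 of these 41 genes (90.2%), compared with 63.4% of the 6788 genes with a ratio that matched the table. The core ACGTG alone was present in 20 of 41 (48.8%) and in 25.9%. The 41 genes include members without a ratio, unlike the genes they are set beside. Among the members with a ratio, either core was found in 6 of 6 genes at least 2-fold lower, 4 of 5 at least 2-fold higher and 21 of 22 that passed neither limit. The STAT palindrome TTCNNNGAA was present in 2 of 41 genes, Aldoc and Pfkm (4.88%), and in 6.79% of the genes with a ratio. Base composition and the number of starts per gene were not matched in these shares, and a match of letters is not a binding site.

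Glycolytic enzymes had lower signals in the knockout at nearly every step that was measured. Of 11 enzyme genes with a ratio, 10 had a log2 ratio under 0, against 46.6% of all genes, and the median was -0.47. The exception was Pfkl, the liver-type subunit of phosphofructokinase, the main regulated step. It had a control signal of 97.7 and a knockout signal of 155, 1.58-fold higher. Of the 19 probe sets of these enzymes that exceeded the floor on 1 or both arrays, 17 had a ratio under 0, and the 2 others were those of Pfkl.

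At the entry of the pathway, the hexokinases phosphorylate glucose. Hk2, the inducible form, had a control signal of 507 and a knockout signal of 393, and Hk1, the more widely expressed form, 177 and 148. Both were lower in the knockout by less than 1.5-fold. Of the other phosphofructokinase subunits, the muscle-type Pfkm had 31.1 and 30.0, nearly the same signal on both arrays. The platelet-type Pfkp had 35.4 in the control, and its knockout signal of 11.7 was below the floor, which put it at least 2.52-fold lower. With the floor value added to each signal instead, the Pfkp difference was within 2-fold (log2 ratio -0.94). Its other probe set was under the floor on both arrays.

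Aldolase cleaves the sugar into triose phosphates. Aldoa, the general form, had signals of 1302 and 977 (1.33-fold lower). Its 3 other probe sets had log2 ratios of -0.48, -0.13 and -0.71. Aldoc, the form known from brain, differed most of the measured enzymes, with 190.0 in the control and 8.25 in the knockout, at least 13.5-fold lower. The other Aldoc probe set was under the floor on both arrays, so this value rests on 1 probe set, whose suffix _a_at marks several transcripts of a gene. Triose phosphate isomerase, Tpi1, had 1530 and 1103, and its 3 probe sets differed in log2 ratio by less than 0.01, with -0.47 in each.

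The later steps showed the same direction. Gapdh, whose product oxidises glyceraldehyde phosphate, was read by 3 control probe sets with signals of 2409 and 1585 at the 3′ end, 2713 and 1749 in the middle and 3272 and 2269 at the 5′ end. All 3 were lower in the knockout, by 1.52-fold, 1.55-fold and 1.44-fold. The phosphoglycerate kinase gene Pgk1, a classical HIF target, had signals of 1351 and 804 (1.68-fold lower), and its 2 other probe sets had log2 ratios of -0.61 and -0.85. The mutase gene Pgam1 had 738 and 393 (1.88-fold lower), close to the 2-fold limit. Pkm, the pyruvate kinase of most tissues, had 352 and 241, 1.46-fold lower.

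Genes of cell division were lower in the knockout as well. All 11 measured genes of a short proliferation list passed 2-fold downward, against 9.92% of all genes, and their median log2 ratio was -4.74. The list was chosen with earlier results of these data known. The genes that differed most were Mki67 (742 and 19.1), Cdk1 (990 and 31.3), Birc5 (674 and 22.9) and Cdc20 (1533 and 56.7). Myc and Mycn, transcription factor genes whose products are known to activate glycolytic genes, had signals of 136 and 20.8 for Myc and 246 and 27.9 for Mycn. The part of cell division or of Myc in the enzyme values was not tested. In the list of Myc, its partners and related factors, 2 of 10 genes were at least 2-fold lower and 1 higher, beside 9.92% and 7.37% of all genes. The higher one was Mxd4, a repressor of the same network, with 203 and 503. Mlxip and Max, the brightest genes of the list within 2-fold, had 234 and 369, and 150 and 94.1.

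**Figure D2:**
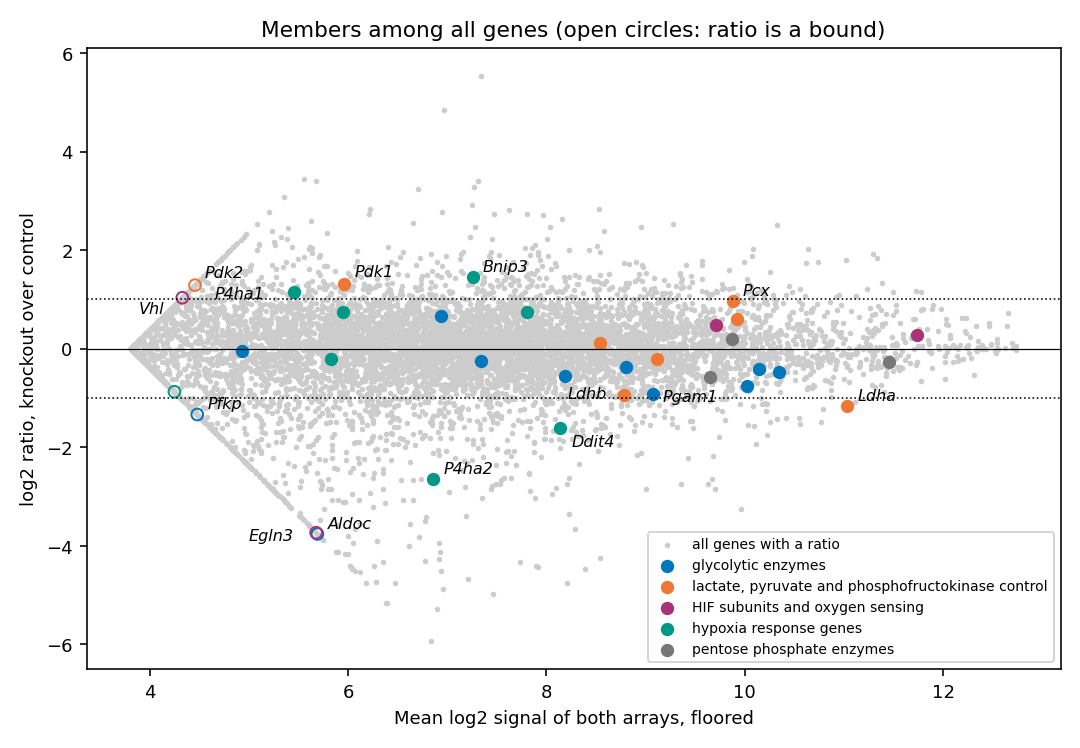
The log2 ratio of knockout over control (vertical axis) against the mean log2 signal of both arrays with low signals set to the floor (horizontal axis), for the 8304 genes with a ratio in grey and the 34 members in colour by role, open where the ratio is a bound. Dotted lines mark 2-fold; Ldha lies below the lower line at the bright end of the plot, where few genes differ by as much, and the enzymes of glycolysis lie mostly just under 0.

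Both lactate dehydrogenase genes had lower signals in the knockout, Ldha past 2-fold, and the pyruvate dehydrogenase kinase genes Pdk1 and Pdk2 were at least 2-fold higher. Ldha, whose subunit favours the making of lactate, had a control signal of 3133 and a knockout signal of 1401, 2.24-fold lower. This value rests on 1 probe set, which has the suffix _a_at. Among the 1240 genes in the brightest 10%, to which Ldha belongs, 4.44% were at least 2-fold lower. Ldhb, which encodes the other subunit, had 608 and 319, 1.91-fold lower. Its 3 other probe sets were lower by 1.88-fold, 2.27-fold and 2.46-fold, so 2 of its 4 probe sets passed the limit. Slc16a1, the gene of a lactate and pyruvate transporter, was 3.20-fold lower (479.6 and 150.0), while Slc16a3, the hypoxia-induced lactate exporter, named after its value was seen, was under the floor on both arrays.

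Several kinases inactivate pyruvate dehydrogenase. Pdk1, the form known to be induced by HIF, had a control signal of 39.5 and a knockout signal of 98.1, 2.48-fold higher, and its second probe set 23.8 and 48.1, 2.02-fold higher. With the floor at the 60th percentile, above both control signals, the log2 ratio of Pdk1 was 0.61. Pdk2 was under the floor in the control (9.87) and had 34.3 in the knockout, at least 2.44-fold higher. Pdk3 was nearly level, with 357 and 385, and Pdk4, the form induced by fasting, was under the floor on both arrays. The kinases measured were thus higher or level in the knockout, while the enzyme they act on was a little lower: Pdha1, its catalytic alpha subunit gene, had 594 and 517, and 193 and 114 for a dimmer probe set. None of 5 measured genes for other parts of the complex or its lipoylation passed 2-fold, among them Pdhb (805 and 942) and Dlat (228 and 164).

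Pcx encodes pyruvate carboxylase, which turns pyruvate into oxaloacetate. It had signals of 674 and 1318, 1.95-fold higher in the knockout and just short of the limit. The array also holds 4 control probe sets of Pcx, which were 1.88-fold higher at the 3′ end (538 and 1009), 1.96-fold and 2.66-fold in the middle and 1.70-fold at the 5′ end (27.0 and 45.9). All 5 probe sets of Pcx were therefore higher in the knockout. Pfkfb3, which makes the sugar bisphosphate that activates phosphofructokinase, had 788 and 1196, 1.52-fold higher, and a dim probe set at the floor in the control had 14.1 and 42.3, 3.01-fold higher. Of the 8 pyruvate, lactate and phosphofructokinase control genes with a ratio, 2 passed 2-fold upward and 1 downward. Among all genes the shares were 7.37% and 9.92%. The median log2 ratio of the 8 genes was 0.36.

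Among HIF subunits and oxygen sensors, Egln3 differed most. Egln3 encodes the prolyl hydroxylase that is itself strongly induced by HIF. It had a control signal of 187 and a knockout signal of 10.2, at least 13.3-fold lower, and its second probe set 33.0 and 3.21, at least 2.35-fold lower. Both probe sets were over the floor in the control and under it in the knockout. Egln1, the main oxygen sensor of the family, had 708 and 986, and 374 and 615 in its second probe set, which were 1.39-fold and 1.64-fold higher. The log2 ratios of Egln1 and Egln3 thus lay at least 4.21 apart, where probe sets of 1 gene on these arrays differed with an SD of 0.28 per probe set over 2853 genes. That SD covers neither animals nor arrays.

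Hif1a, which encodes the oxygen-regulated alpha subunit, gave a ratio that depended on the probe set. Its brightest probe set had signals of 3079 and 3757, 1.22-fold higher in the knockout. The dimmer ones had 403 and 1233 (3.05-fold higher) and 57.4 and 170.3 (2.97-fold higher), and the last was under the floor on both arrays. The 3 measured probe sets thus had the same direction and differed by 1.32 in log2 ratio. Vhl, the ligase subunit that binds hydroxylated HIF, was under the floor in the control (11.6) and had 28.8 in the knockout, at least 2.05-fold higher, or within 2-fold with loess scaling (log2 ratio 0.97) or the floor value added (0.74). Epas1, which encodes the alpha subunit HIF2A known from endothelium and stroma, had 9.72 and 6.46, under the floor on both arrays, as was the HIF beta subunit gene Arnt.

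Of 15 measured genes in a further list of HIF subunits, ligase partners and cofactors, none passed 2-fold in either direction, and 10 had a ratio above 0. Among all genes, 17.3% passed 2-fold in either direction and 46.6% had a ratio under 0. Ube2d3, a ubiquitin-conjugating enzyme gene, had 2648 and 2362, and Elob, which encodes the elongin B subunit of the VHL ligase, had 1268 and 1291. The remaining EGLN gene, Egln2, named like Arnt after its value was seen, had 234 and 397.

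Hypoxia response genes differed in opposite directions. Of 8 with a ratio, 2 were at least 2-fold lower, 2 at least 2-fold higher, and 4 had a ratio under 0. Among all genes the shares were 9.92%, 7.37% and 46.6%, so the split by sign was near that of all genes. P4ha2 and Ddit4 were the lower pair. P4ha2, a catalytic subunit of the prolyl hydroxylase that stabilises collagen, had signals of 290 and 46.5, 6.23-fold lower. Ddit4, also called REDD1, an inhibitor of the growth-controlling kinase mTORC1, had 492 and 160.3, 3.07-fold lower. Car9, which encodes a cell surface carbonic anhydrase and is a common tissue marker of hypoxia, had 25.7 in the control. Its knockout signal of 6.73 lay under the floor, which made it at least 1.83-fold lower. With no floor, or the floor at the 20th percentile, the Car9 log2 ratio was -1.93, past 2-fold. In those settings 3 of the 8 genes were at least 2-fold lower.

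The higher ones were Bnip3 and P4ha1. Bnip3, which marks mitochondria for removal, had signals of 92.3 and 254, 2.75-fold higher. P4ha1, the other catalytic subunit of collagen prolyl hydroxylase, had 29.5 and 65.6, 2.23-fold higher, with a second probe set under the floor on both arrays. The subunits P4ha1 and P4ha2 therefore differed by 3.79 in log2 ratio, both being over the floor on both arrays. The P4ha1 signals are low, and its log2 ratio was 0.87 with the floor value added and 0.03 with the floor at the 60th percentile. Their promoter windows are among those printed above.

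Signals of the remaining hypoxia genes lay within 2-fold. Vegfa, the angiogenic growth factor, had 47.9 and 79.8, and 15.4 and 20.8 in its other probe set, 1.67-fold and 1.34-fold higher. Ndrg1, a stress-responsive gene, was higher in all 5 of its probe sets, from 1.33-fold to 1.96-fold, with 173 and 290 in the brightest. Adm, which encodes the vasodilator peptide adrenomedullin, had 60.8 and 52.8.

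In the pentose phosphate pathway, which makes NADPH and ribose phosphate from glucose, 3 of the 4 genes had a ratio, and none passed 2-fold. Pgd, its second dehydrogenase, had signals of 982 and 658, 1.49-fold lower. The 3 other Pgd probe sets were 1.84-fold, 3.08-fold and 1.69-fold lower, so 1 of 4 passed the limit. Tkt and Taldo1, the transketolase and transaldolase of the branch that returns to glycolysis, had 3093 and 2555, and 872 and 1003. The second Tkt probe set had 932 and 683, 1.37-fold lower. Of all genes, 9.92% were at least 2-fold lower and 7.37% higher. Among 7 further measured genes of the pathway and its outflow, 3 were at least 2-fold lower and 0 higher. They were H6pd, the dehydrogenase of the endoplasmic reticulum (254 and 57.0, 4.47-fold lower), and Prps1 and Prps2, which make the nucleotide precursor PRPP (212 and 60.7, and 32.9 and 15.3). Rpia and Pgls were within 2-fold, with 492 and 548, and 352 and 236.

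Probe sets of the same gene shared their direction. All 15 members with more than 1 measured probe set had the same direction in each of them, and 11 of the 15 stayed on 1 side of the 2-fold limit. The 4 others were Hif1a, Ldhb, Pfkfb3 and Pgd. Of the 12 members in the brightest 10% of genes, 7 had a ratio under 0, against 49% of all genes there. Ldha alone passed 2-fold among them, so 1 of 12 was lower and 0 higher, beside 4.44% and 6.61% of all genes at that brightness and 11% in either direction.

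**Figure D3:**
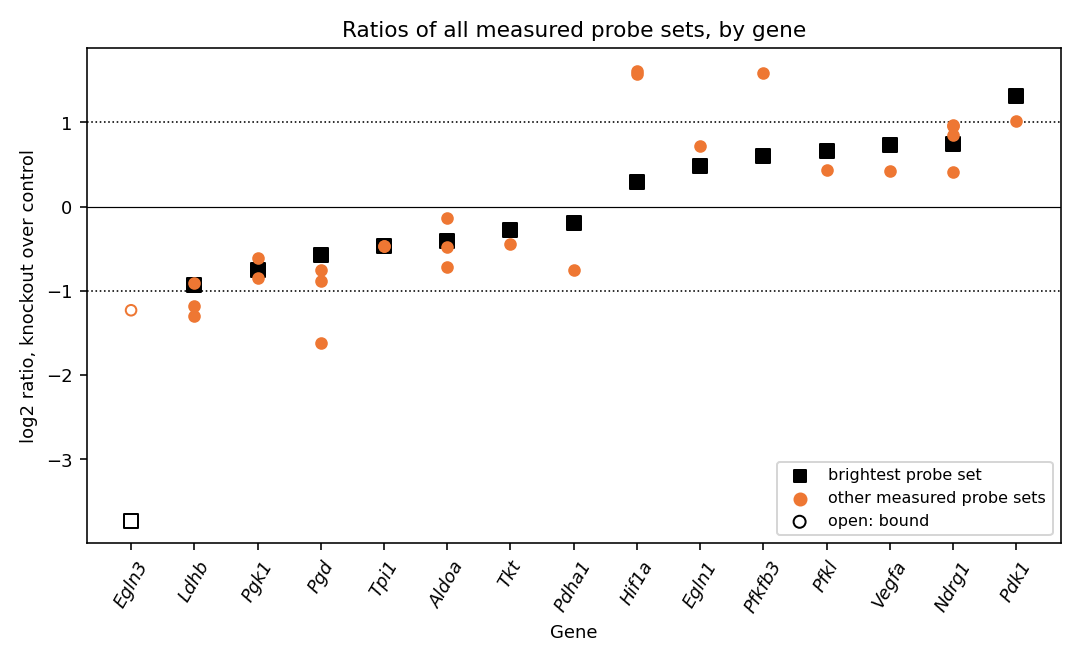
Log2 ratio of knockout over control for each measured probe set of the 15 genes with more than 1, with squares for the brightest probe set, circles for the others and open symbols for bounds. Every gene keeps 1 sign, and Hif1a, Ldhb, Pfkfb3 and Pgd have probe sets on both sides of a dotted 2-fold line.

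Further lists give the setting of these genes. Among glucose and lactate transporters, 2 of 10 with a ratio passed 2-fold upward and 1 downward, beside 7.37% and 9.92% of all genes. The glucose carrier Slc2a3 had 2536 and 3620, Slc2a1, added after its value was seen, 419 and 470, and Bsg, the chaperone of lactate carriers, 689 and 580. The higher ones were Slc5a11, a sodium-coupled sugar and inositol carrier gene (122 and 476, 3.92-fold), and Slc16a4, under the floor in the control (at least 2.28-fold). Among other glycolytic isoenzymes and partners, Galm, the mutarotase gene, was 2.31-fold higher (986 and 2283) and Bpgm, whose product makes bisphosphoglycerate, 2.16-fold lower (119 and 55.2). None of the 5 others passed 2-fold, among them Pgam5 with 264 and 234 and Gpd2 with 216 and 355. Of these 7 genes, 1 was thus higher and 1 lower, beside the same 7.37% and 9.92% of all genes.

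Genes of glycogen metabolism included the phosphoglucomutase gene Pgm1, at 3.69-fold higher (65.8 and 243), and the branching enzyme gene Gbe1, at 2.43-fold higher (47.6 and 116). Gyg, the primer protein of glycogen, was 2.77-fold lower (66.7 and 24.0). Of 14 genes, 2 were thus higher and 1 lower, beside 7.37% and 9.92% of all genes. The median log2 ratio was 0.45, beside 0.05 for all genes. Ugp2, which makes UDP-glucose, had 1103 and 1851, and Phkb, a subunit of phosphorylase kinase, 257 and 390. In gluconeogenesis, 1 of 6 genes was at least 2-fold lower and 0 were higher, beside 9.92% and 7.37% of all genes. The lower one was Got1, an aspartate aminotransferase gene, at least 2.47-fold lower (34.7 and 10.7). The malate dehydrogenase gene Mdh1 had 1320 and 1692 and the glucose phosphate transporter gene Slc37a4 58.2 and 113.

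The tricarboxylic acid cycle burns the acetyl groups made from pyruvate. Its list, which also holds the related genes Aco1, Idh1, Me1 and Me2, had 16 of 20 ratios under 0, against 46.6% of all genes. The median log2 ratio was -0.28. At least 2-fold lower were 2 of 20 genes and 0 were higher, beside 9.92% and 7.37% of all genes. The lower ones were the isocitrate dehydrogenase genes Idh3a, 3.02-fold lower (669 and 221), and Idh2, 2.38-fold lower (186 and 78.1). Mdh2 and Cs, which encode malate dehydrogenase and citrate synthase, had 2301 and 2146, and 1643 and 1963.

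Other transcripts known to be raised by hypoxia were also split. Of 40 with a ratio, 10 (25%) passed 2-fold upward and 6 (15%) downward, beside 7.37% and 9.92% of all genes. The median log2 ratio was 0.32, beside 0.05 for all genes. Some genes of this list are also regulated by iron, growth or hormones, and 2 of the 10, Pgm1 and Gbe1, were counted above for glycogen. The largest differences were lower signals in the knockout. Tfrc, the transferrin receptor gene, was 12.6-fold lower (1108 and 87.9), the cytokine gene Mif 6.69-fold lower (1693 and 253), the carbonic anhydrase gene Car12 4.86-fold lower (317 and 65.1) and Sap30, a histone deacetylase subunit gene, 4.78-fold lower (189 and 39.4). Hilpda, a lipid droplet gene named here after its value was seen, was highest relative to the control, at 3.71-fold (125 and 465). The metallothionein genes Mt1 and Mt2 had 5590 and 6402, and 4005 and 4634.

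**Figure D4:**
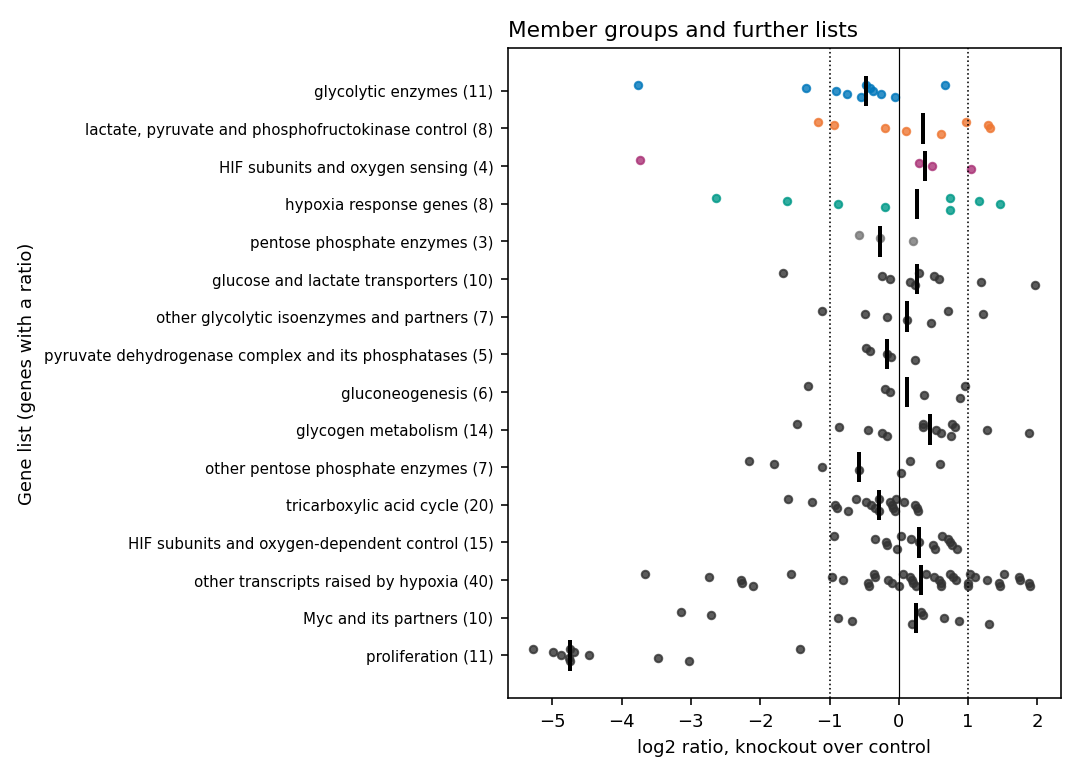
Log2 ratios of knockout over control for each gene with a ratio (points), by member group and by further list, with a bar at each median and the number of genes in brackets. Glycolytic enzymes sit mostly between -1 and 0, the hypoxia lists spread to both sides, and the proliferation list lies far to the left.

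The 8 epithelial markers summed to 20875 (control) and 21440 (knockout), and all were over the floor on both arrays. Krt8 had 4220 and 4289, Krt7 was 3.46-fold lower (1592 and 460.3) and Cldn4 2.09-fold higher (371 and 776). Stromal markers were present on both arrays and a little higher in the knockout in 8 of 9 measured genes, with a sum over 10 genes of 2750 and 3839, Dcn at 1235 and 1753 and the stromal factor gene Hand2 under the floor. Macrophage markers summed to 1693 and 2752, of which Cd14 gave 1262 and 2101. Of these 7 genes, 6 were higher in the knockout and 1, Cd68, was lower (81.1 and 44.4). Endothelial markers summed to 143 and 157 over 10 genes, 5 of them under the floor on both arrays, among them Pecam1 and Kdr. Of the 5 measured, 4 were lower in the knockout and 1, Esam, was higher (33.1 and 61.2). Smooth muscle markers summed to 175 and 110, pan-leukocyte markers to 493 and 372, and glandular markers to 91.3 and 236. Among the glandular markers Spink1 had 14.2 and 155, while Lif was at least 2.12-fold lower. All 5 neutrophil and both erythroid markers named on the array were under the floor on both arrays. The part of stromal and macrophage RNA in the higher hypoxia genes was not tested.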

How the data were processed

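Total RNA of pooled uterine epithelium was read on 1 control and 1 Stat3 knockout Affymetrix Mouse Genome 430A 2.0 array. The authors deposited 1 linear intensity per probe set, made with MAS5 in Affymetrix Expression Console 1.1, both named in the submitters' processing notes. With the outer 2% of values removed at either end, both arrays average 150.1. Probe-level data and detection calls are not analysed here, and the sources used here name no hybridisation batch.

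Of 22690 probe sets, 64 were controls. Of the others, the platform annotation, possibly old, gave 20380 exactly 1 gene, 691 several and 1555 no gene. RefSeq (GRCm38.p6) held 99.9% of the gene IDs and supplied current symbols. Each gene took its probe set of highest mean log2 signal. Signals under 14.0 (40th percentile) were set to it. A gene under it on both arrays got no ratio, and on 1 array a bound ("at least"). Genes were counted at 2-fold, with no test. The number of arrays limits the precision.

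Members and lists were chosen with earlier results of these data known. All members are accounted for, with all probe sets of the bright ones (top 10% of genes) and of those past 2-fold. Each further list gives up to 4 genes past 2-fold with the largest ratios and the 2 brightest others. Alternatives changed scaling (median, quantile, loess with span 0.3), floor, representative probe set and fold limit. Python 3.11.15, numpy 2.4.6, pandas 2.3.3 and statsmodels 0.14.6 were used, and ratios and scaling were tested on simulated data.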

Additional observations from a re-analysis of the deposited data

How the results depend on the processing

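No paired analysis was possible because each group has 1 array, and no replicate could be left out. A value with no replicates was called moved when it changed by more than 0.28, the SD between probe sets of 1 gene. Under 12 alternatives, 1 of them (only genes over the floor on both arrays) chosen after seeing the data, all 11 members past 2-fold kept their direction wherever they had a value, and 7 of them were past 2-fold in each setting of scaling, floor or probe set that gave them one. Aldoc and Pdk2 had a value in 9 such settings, the report's included, Ldha and Egln3 in 10 and Bnip3, Ddit4 and P4ha2 in 11. The 4 others were P4ha1, Pdk1, Pfkp and Vhl. Of all 34 members, Pfkm alone changed sign (-0.16 to 0.01 in log2 ratio). Of 317 single-gene values 27 moved. With shared probe sets left out, Hif1a had a log2 ratio of 1.61.

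The median of all members ranged from -0.31 (mean of all probe sets) to -0.05 (shared probe sets left out). Members at least 2-fold higher, 5 in the report, numbered 1 with the floor at the 60th percentile, 3 with the floor value added and 3 over the floor on both arrays, and 10 and 0 at the 1.5-fold and 3-fold limits. The 6 lower ones numbered 3 over the floor on both arrays and 10 at 1.5-fold. Across all genes the 1.5-fold limit gave 1607 higher and 1541 lower, the 3-fold limit 143 and 401, no floor 1927 and 1774, the floor at the 20th percentile 1094 and 1113, the floor at the 60th percentile 346 and 449, and no scaling moved the counts by 1.5 times.

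By group, lower glycolytic enzymes (2 in the report) numbered 0 over the floor on both arrays, 4 at 1.5-fold and 1 with the higher floor, the added floor, unshared probe sets or 3-fold; higher ones (0) numbered 1 with no floor or at 1.5-fold. For pyruvate and lactate control genes, the higher (2) ranged from 0 to 4, with 1 over the floor on both arrays, and the lower (1) from 0 to 2. For HIF subunits and sensors, the higher (1) ranged from 0 to 2, the lower (1) was 0 over the floor on both arrays, and the median (0.38) was 0.82 with the mean of probe sets and 0.76 with unshared ones. For hypoxia response genes the higher (2) ranged from 0 to 4, with 1 under the higher or the added floor, and the median (0.27) was 0.74 over the floor on both arrays.

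Some counts of further lists moved. HIF partners higher (0) reached 5 at 1.5-fold, and lower (0) reached 1. Genes of the Myc list higher (1) ranged from 0 to 3 and lower (2) from 1 to 4. Gluconeogenesis higher (0) reached 1 with median centring and 2 at 1.5-fold, and lower (1) ranged from 0 to 2. Transporters higher (2) ranged from 1 to 4 and lower (1) reached 3. Glycogen genes higher (2) ranged from 1 to 6 and lower (1) from 0 to 2. Other isoenzymes higher (1) ranged from 0 to 5, with 2 at 1.5-fold, and lower (1) from 0 to 2. Other pentose phosphate genes higher (0) reached 1, tricarboxylic acid cycle genes lower (2) ranged from 1 to 6, and other hypoxia transcripts higher (10) numbered 17 at 1.5-fold and 4 at 3-fold.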
